A study of Mus musculus with 14 samples.

Results

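Adult retinal microglia were set against the whole retina at postnatal day 60 (P60), gene by gene, over 4 of the 14 libraries of the series: 3 of sorted microglia and 1 of whole retina. All 4 came from C57BL/6 mice. The microglia carried the genotype Cx3cr1-GFP, in which green fluorescent protein marks cells that use the Cx3cr1 locus, and were taken from retinas dissociated with Liberase and DNase I for 35 min by a sort that kept cells with GFP and surface CD45 and left out those with CCR2. Each microglia library pooled 7 to 14 retinas, and the labels call the 3 libraries biological replicates. The whole retina was wild type (WT), was not dissociated or sorted, and was extracted with another RNA kit. Tissue, sort, dissociation, genotype and kit therefore cannot be told apart in any difference below. With 1 library of whole retina its own spread is unknown, so sizes are given and no test was run against it. The ± values below are standard deviations (SD) over the 3 microglia libraries.

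Microglia are the resident macrophages of the central nervous system and depend on signalling through the receptor CSF1R. In the adult retina they lie mainly in the synaptic layers, where their processes contact neurons, take up debris and respond to ligands that neurons and glia present. The whole retina holds these cells too, but most of its cells are rods, with cones, bipolar, amacrine, horizontal and ganglion cells, Mueller glia and blood vessels. A gene's level in whole retina is therefore a sum over cell types, in which fewer cells of a type and less RNA per cell cannot be told apart.

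The microglia libraries held 8996298, 10057607 and 11008611 counts and the retina library 22205695. Levels are given as CPM, counts scaled to a common library size, after TMM scaling, a factor per library that aligns most genes. Of the 20902 genes in the table, 17495 had at least 1 CPM in the retina or in the microglia mean. A gene was called higher in microglia when each of the 3 libraries was at least 4-fold above the retina library, and lower when each was at least 4-fold below it, with 0.5 CPM added to both sides. By this rule 1956 genes (11.2%) were higher, 2922 (16.7%) were lower and 12617 were neither. The median log2 ratio over all tested genes was -0.37, and gene lists below are read against that value and those shares. In microglia the higher genes took 35.0%, 32.6% and 37.8% of all counts of the 3 libraries, and 1.93% in retina. The lower genes took 1.92%, 3.18% and 1.42% in microglia and 35.1% in retina. In retina 98 of the higher genes had 0 counts, and 619 of the lower genes had 0 counts in all 3 microglia libraries. In the authors' deposited table, which gives adjusted p-values for the same contrast, 97.3% of the higher genes and 72.0% of the lower genes were below 0.05. Over all genes with such a value, 6896 of 18106 were below 0.05. Of these, 50.1% of the genes up in microglia and 67.9% of the genes down met the rule used here. Those p-values rest on the same libraries, so they are no independent check.

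**Figure D1:**
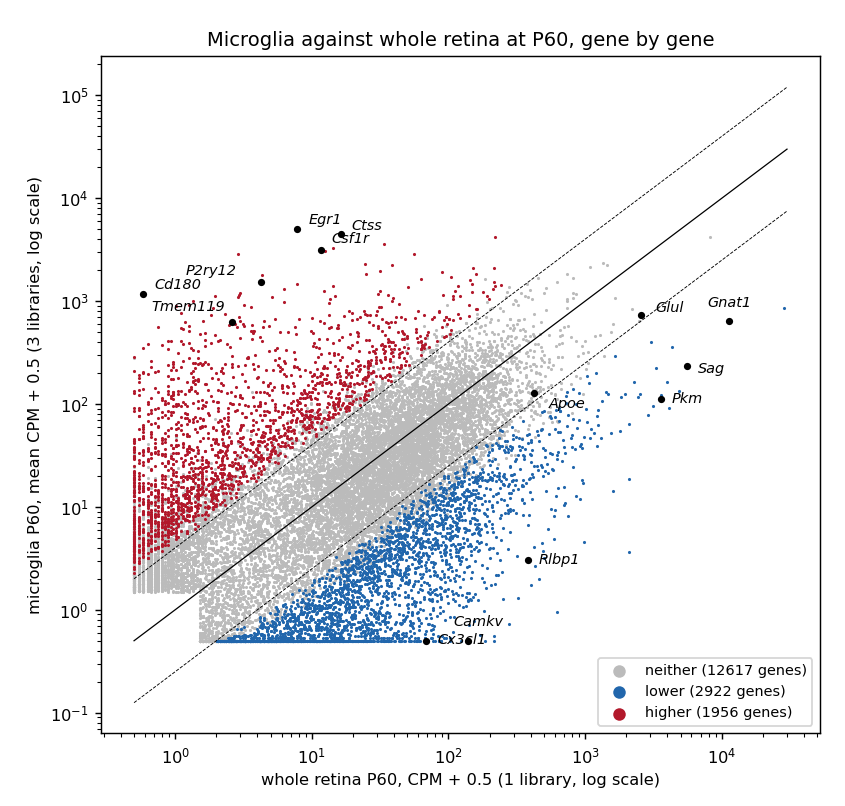
Each point is 1 of 17495 genes, with its level in whole retina on the x axis and its mean level in the 3 microglia libraries on the y axis, both as CPM with 0.5 added on log scales. The solid line marks equal levels and the dashed lines a 4-fold difference. Microglial receptors such as Csf1r and P2ry12 lie far above the lines, rod genes such as Gnat1 and Sag far below, and Glul and Apoe lie below the solid line without meeting the rule (Apoe turned to 0.26 on the log2 scale after centring by GC content).

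The genes of the sort and Csf1r were higher in every microglia library. The sort kept cells by CD45 and by the Cx3cr1 reporter, so the levels of Ptprc and Cx3cr1 are not a separate result. Ptprc, which encodes the sorted surface protein CD45, had 1273, 722 and 994 CPM in the 3 libraries and 0.849 CPM in retina (95% Poisson interval 0.519 to 1.31, counting error only). Cx3cr1, the fractalkine receptor whose locus carries the reporter, had 862, 1120.4 and 1645 CPM in microglia and 2.46 CPM in retina. Library 3 was highest for Cx3cr1 and library 1 for Ptprc, and every microglia library lay far above the retina for both genes. Ccr2, which encodes the monocyte receptor that the sort selected against, had 12.6, 12.0 and 7.29 CPM and 0.382 CPM in retina, so it was detected in all 3 sorted libraries and was called higher. Csf1r, the receptor for the microglial survival factors CSF1 and IL-34, had 4181, 2016 and 3140.1 CPM and 11.1 CPM in retina (log2 ratio 8.01 ± 0.53, a 281-fold difference of the means). Part of the Csf1r exons overlaps Hmgxb3 on the other strand, and strand use in the counting is not stated in the labels.

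Of 26 homeostatic microglia genes, 22 were higher and 0 were lower, with a median log2 ratio of 6.61. Tmem119, a surface protein used to mark resident microglia, had 943, 424 and 524 CPM and 2.12 CPM in retina. P2ry12, the ADP receptor that guides microglial processes, had 2248, 996 and 1377 CPM and 3.78 CPM in retina. Sall1, a transcription factor of microglial identity, had 534, 371 and 537 CPM and 1.02 CPM in retina. Library 1 was the highest of the 3 for 15 of the 26 genes and library 2 the lowest for 23 of them, and the summed level was 29106, 18001 and 25266 CPM. The 4 members that were not called were Rtn4rl1, Cst3, Bin1 and Ctsf, each with a retinal level of at least 27.3% of the microglial one. Cst3, the secreted protease inhibitor cystatin C, had 1671, 1643 and 1665 CPM in microglia and 454 CPM in retina, and Ctsf was the only member below the retina in all 3 libraries, with 42.7, 44.1 and 28.2 CPM against 173 CPM. Over the 26 genes the retina held a median of 0.750% of the microglial level, from 0.128% for P2ry13 to 450% for Ctsf. As a ratio of summed levels the value was 5.03%.

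The transcription factors of the macrophage and microglial lineage followed the surface genes: 14 of 16 were higher and 0 lower, with a median log2 ratio of 5.78. Ikzf1, the lymphoid and myeloid regulator Ikaros, had 664, 678 and 1346 CPM in microglia and 0.510 CPM in retina. Mef2a, a MADS-box factor also used by neurons and muscle, had 2326, 1174 and 1652 CPM and 104 CPM in retina (log2 ratio 3.99 ± 0.49). The 2 members not called were Mef2c, at 754, 563 and 636 CPM against 231 CPM in retina, and Cebpb, at 3.52, 5.93 and 7.65 CPM against 3.57 CPM.

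Promoter windows of the 250 bases before the RefSeq start of each gene were searched on both strands for a motif of PU.1, the macrophage factor encoded by Spi1 (GAGGAAGT), and for a motif of CRX, the photoreceptor factor (TAATCC). Neither motif contains the other. Windows were found for 12180 of the 17495 tested genes. The PU.1 motif was in the windows of 2.79% of these genes, 5.82% of the 1305 higher genes with a window and 1.84% of the 2016 lower genes with a window. The CRX motif was in 6.74%, 6.90% and 7.69% of the same sets. Of the genes named here, Havcr2 and Inpp5d are shown because they were higher in microglia and their windows hold the PU.1 motif, and Sag and Gnat2 because they were lower and hold the CRX motif. Each is written in the direction of its gene (build GRCm38.p6, plus strand for all 4), with the motif, or its reverse complement for CRX (GGATTA), in capitals. The windows are chr11:46454681-46454930 for Havcr2, chr1:87620062-87620311 for Inpp5d, chr1:87803430-87803679 for Sag and chr3:108092816-108093065 for Gnat2. A match is a description of these letters and not of binding.
Havcr2: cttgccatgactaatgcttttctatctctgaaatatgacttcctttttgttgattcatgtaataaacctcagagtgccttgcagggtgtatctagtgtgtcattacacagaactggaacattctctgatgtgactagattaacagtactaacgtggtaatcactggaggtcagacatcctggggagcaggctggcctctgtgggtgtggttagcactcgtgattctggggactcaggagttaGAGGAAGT
Inpp5d: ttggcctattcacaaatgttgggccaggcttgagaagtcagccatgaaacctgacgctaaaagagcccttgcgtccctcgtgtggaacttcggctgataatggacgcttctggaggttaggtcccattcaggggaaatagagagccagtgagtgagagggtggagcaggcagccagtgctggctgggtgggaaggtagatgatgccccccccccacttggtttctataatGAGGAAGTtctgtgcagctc
Sag: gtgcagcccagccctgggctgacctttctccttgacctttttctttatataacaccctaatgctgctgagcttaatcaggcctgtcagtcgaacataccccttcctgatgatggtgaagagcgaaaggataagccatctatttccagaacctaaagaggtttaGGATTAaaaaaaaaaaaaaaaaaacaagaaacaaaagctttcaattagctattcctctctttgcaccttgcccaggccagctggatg
Gnat2: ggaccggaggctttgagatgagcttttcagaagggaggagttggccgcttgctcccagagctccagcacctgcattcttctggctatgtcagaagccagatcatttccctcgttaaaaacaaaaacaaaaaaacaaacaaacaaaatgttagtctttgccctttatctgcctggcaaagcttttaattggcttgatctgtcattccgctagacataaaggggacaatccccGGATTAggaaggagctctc

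The 12 genes with the largest ratios, ranked by their lowest microglia library among genes of at least 50 CPM in microglia, were Cd180, Itgam, Ikzf1, Havcr2, Apbb1ip, Ptprc, Elf4, C3ar1, P2ry13, Csf3r, Runx1 and Cd33. They are immune surface receptors, integrin-related genes and blood cell transcription factors. Cd180, a Toll-like receptor homologue, had 1586, 967 and 944 CPM in microglia, and 0.0849 CPM in retina came from 2 counts. Havcr2, the checkpoint receptor TIM-3, had 787, 645 and 871 CPM and 0.595 CPM in retina. Apbb1ip, an adaptor that activates integrins, had 439, 587 and 658 CPM and 0.255 CPM in retina. Csf3r, the receptor for the growth factor G-CSF and best known from neutrophils, had 429, 396 and 416 CPM and 0.425 CPM in retina, with the smallest spread of the 12 (log2 ratio 8.81 ± 0.06). The gene listed as Itgam, a complement receptor integrin, had 2011, 2957 and 3652 CPM and 2.38 CPM in retina. Its identifier, ENSMUSG00000108596, is given in the GENCODE M21 annotation to Gm49368, a gene model that overlaps Itgam.

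**Figure D2:**
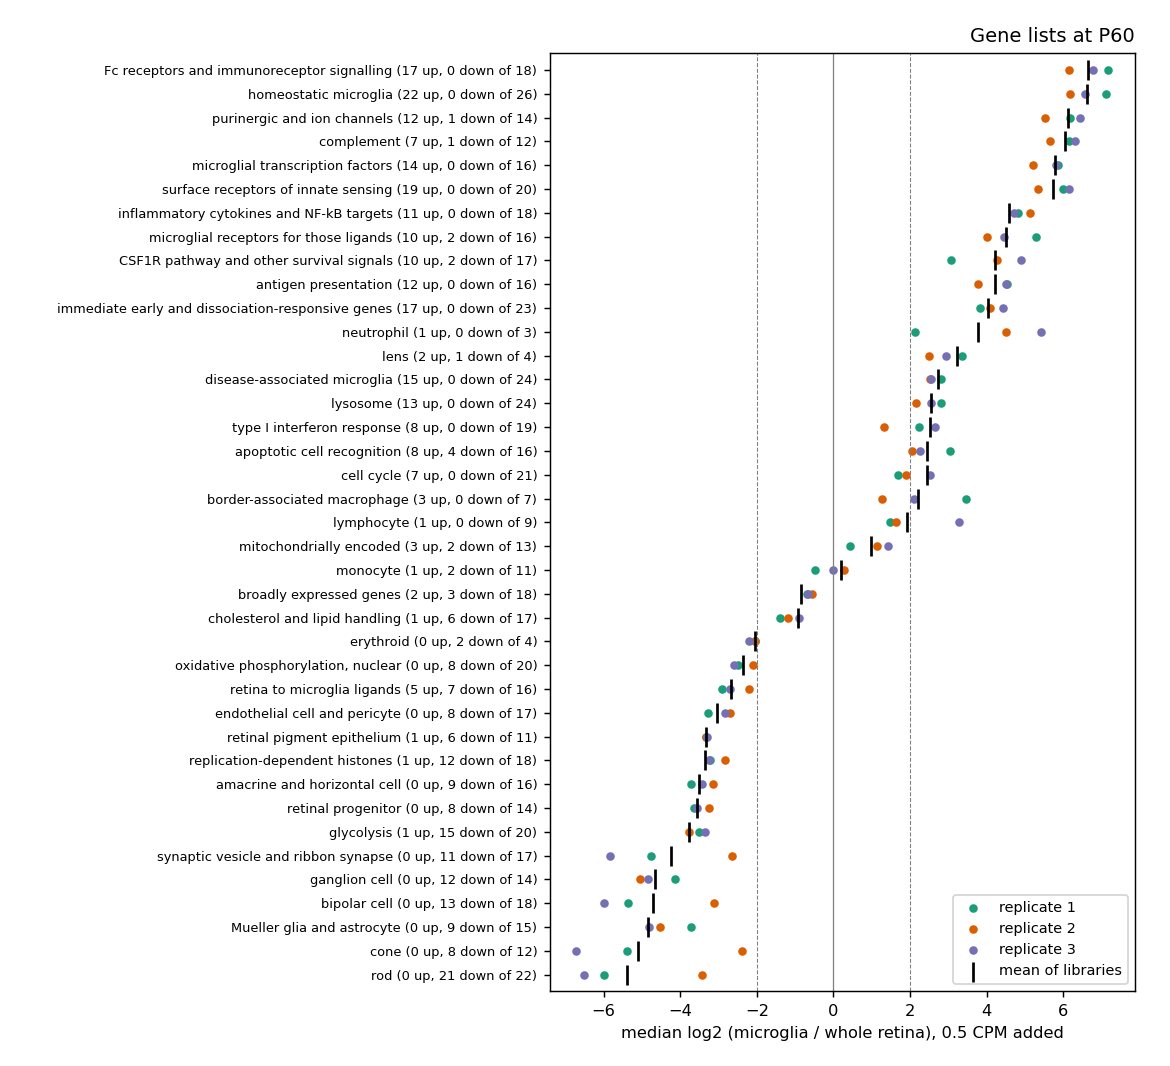
For each gene list, coloured points give the median log2 ratio of microglia to whole retina in each of the 3 microglia libraries and the black tick the median of the mean ratios, with 0.5 CPM added. Dashed lines mark a 4-fold difference, and the labels count members higher (up) and lower (down) of those tested. The black ticks of the homeostatic, innate sensing, Fc receptor and antigen presentation lists lie above 4. Those of the rod, cone and bipolar lists lie below -4. Replicate 2 stands to the right of the other replicates in the rod, cone, bipolar and synapse lists, where its rod, cone and bipolar medians are above -4. Its antigen presentation median is 3.77.

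Most genes of innate sensing and of Fc receptor signalling were higher. Of 20 receptors of innate sensing, 19 were higher and 0 lower, with a median log2 ratio of 5.74. Among them Cd33, an inhibitory sialic acid receptor, had 1324, 518 and 914 CPM against 0.764 CPM in retina, and Ly86, the partner of CD180, had 1049.7, 479 and 676 CPM against 1.32 CPM. Clec4a1 was the member not called, at 0.782, 1.46 and 10.4 CPM in microglia. Of 18 Fc receptor and immunoreceptor signalling genes, 17 were higher and 0 lower, with a median of 6.65. Fcer1g, the shared signalling chain of Fc receptors, had 397, 295 and 349 CPM against 0.807 CPM in retina, and the kinase gene Lyn had 808, 403 and 511 CPM against 2.68 CPM. Inpp5d, the phosphatase SHIP1 that dampens this signalling, had 656, 387 and 506 CPM against 3.23 CPM. Library 1 was the highest of the 3 for 16 of these 18 genes.

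Of 14 purinergic and ion channel genes, 12 were higher and 1 was lower. Entpd1, the ectonucleotidase CD39, had 683, 350.0 and 429 CPM against 3.19 CPM in retina. The lower member was the potassium channel gene Kcna3, at 0.782, 0 and 0.356 CPM against 6.97 CPM, and it was not called after centring by GC content (described below). Of 12 complement genes, 7 were higher and 1 lower. C1qb, a chain of the complement initiator C1q, had 588, 566 and 771 CPM against 3.99 CPM in retina, while C1qa, another chain of the same protein, had 86.9, 19.6 and 21.3 CPM against 5.52 CPM and missed the rule. After centring by GC content C1qa was called higher. The lower member was Cfp, properdin, which stabilises the alternative pathway convertase, at 0.685, 0.344 and 0.534 CPM against 5.10 CPM. It was not called after centring by GC content.

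The genes for recognising apoptotic cells lay on both sides, with 8 of 16 higher and 4 lower. The receptor Mertk, which binds the bridging proteins GAS6 and protein S, had 994, 728 and 1165 CPM against 12.95 CPM in retina. The engulfment genes Elmo1 (595, 274 and 396 CPM against 25.6 CPM) and Dock2 (454, 233 and 304 CPM against 0.977 CPM) were also higher. Tyro3, the receptor related to Mertk, was on the retinal side, with 0.685, 0 and 0 CPM against 30.9 CPM. So were the bridging protein genes Mfge8, at 4.21, 22.2 and 0.0890 CPM against 296 CPM, and Gas6, at 49.0, 33.0 and 28.9 CPM against 233 CPM, and the phosphatidylserine receptor gene Adgrb1, at 0.391, 0.773 and 0 CPM against 46.1 CPM. Gas6 was not called after centring by GC content.

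Of 24 lysosomal genes, 13 were higher and 0 lower, with a median log2 ratio of 2.54, smaller than those of the receptor lists. Ctss, the protease cathepsin S, was far apart from the retina at 5806, 3465 and 4320.0 CPM against 15.8 CPM. Ctsd, cathepsin D, had 1714, 1183 and 1437 CPM against 239.8 CPM, a 6.03-fold difference. Of 24 genes associated with disease-associated microglia (DAM), a state described around amyloid and in development, 15 were higher and 0 lower, with a median of 2.72. B2m, the light chain of MHC class I, had 2086, 1753 and 3107 CPM against 24.0 CPM, and Ctsl, cathepsin L, had 825, 1139 and 1396 CPM against 120.1 CPM. Csf1, a survival factor gene that DAM induce, had between 15.9 and 26.0 CPM in the 3 libraries against 3.53 CPM, and on the deposited FPKM scale it missed the rule. Apoe, the lipid carrier used as a DAM marker, was below the retina in all 3 libraries, with 154, 99.5 and 127 CPM against 425 CPM, and was not called (log2 ratio -1.76 ± 0.32). After centring by GC content its direction turned, to a mean log2 ratio of 0.26.

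Of 17 cholesterol and lipid genes, 1 was higher and 6 were lower, with a median log2 ratio of -0.94. On FPKM 3 were higher and 3 lower, with a median of -1.65. The higher member was Lpl, lipoprotein lipase, at 84.3, 71.7 and 65.0 CPM against 13.6 CPM, which was not called after centring by GC content. Scd2, a fatty acid desaturase, had 21.6, 29.4 and 43.0 CPM against 351 CPM. Hmgcs1, an enzyme of cholesterol synthesis, had 35.1, 24.2 and 22.6 CPM against 207 CPM, and the sterol exporter gene Abcg1 had 20.3, 32.6 and 29.4 CPM against 159 CPM. Neither Hmgcs1 nor Abcg1 was called on FPKM, and Abcg1 was not called after centring by GC content either.

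Immune response genes were higher to different degrees. Of 16 antigen presentation genes, 12 were higher and 0 lower (median log2 ratio 4.20). The most abundant by CPM were B2m and the class I heavy chain genes H2-K1 (487, 609 and 927 CPM against 20.7 CPM) and H2-D1 (459, 504 and 547 CPM against 42.4 CPM). H2-K1 and H2-D1 are separate genes of a family of similar sequence, between which estimated counts can be shared. Of 18 inflammatory cytokine and NF-kB target genes, 11 were higher and 0 lower (median 4.57). Il1a, which encodes the cytokine interleukin-1 alpha, had 285, 315 and 434 CPM against 0.382 CPM, and the adhesion gene Icam1 had 145, 264 and 319 CPM against 1.23 CPM. Of 19 type I interferon response genes, 8 were higher and 0 lower (median 2.51). The antiviral GTPase genes Mx1 (60.3, 90.2 and 155 CPM against 0.849 CPM) and Mx2 (25.4, 117 and 119 CPM against 0.170 CPM) and the sensor-related Oasl2 (109.5, 57.0 and 154 CPM against 6.75 CPM) passed the rule. Library 3 was the highest for 12 of the 19 interferon genes.

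Immediate early genes, which cells switch on within minutes and which enzymatic dissociation also induces, were higher in 17 of 23 cases and lower in 0 (median log2 ratio 4.04). Egr1, a growth factor induced transcription factor, had 1020.2, 5629.7 and 8414 CPM against 7.35 CPM in retina. Dusp1, a MAP kinase phosphatase, had 417, 1198 and 1748 CPM against 14.2 CPM. Zfp36, which promotes decay of cytokine mRNAs, had 411, 1332 and 1566 CPM against 2.38 CPM, and Fos had 351, 368 and 540.1 CPM against 24.5 CPM. Library 1 was the lowest of the 3 for 22 of the 23 genes and library 3 the highest for 21. Their summed level was 5899, 14797 and 20896 CPM in the microglia libraries and 589 CPM in retina. Only the microglia were dissociated, and the part of dissociation in these differences was not tested.

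Genes of ligands that act between retina and microglia lay on both sides, and most of their receptor genes were higher in microglia. Of 16 ligand genes tested, 7 were lower and 5 higher in microglia, and of 16 receptor genes 10 were higher and 2 lower. Cx3cl1, which encodes fractalkine, the neuronal ligand of CX3CR1, had 68.4 CPM in retina and 0 counts in all 3 microglia libraries, at least 755-fold lower (against 3 counts over the 3 libraries). Cd200, which encodes an inhibitory ligand on neurons and vessels, had 28.2 CPM in retina and 0 counts in microglia, at least 312-fold lower. Il34, a neuronal ligand of CSF1R, had 4.59 CPM in retina and 0, 0.172 and 0 CPM in microglia, while Csf1, the other ligand, was higher in microglia as given above. Neither was called on FPKM.

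The transforming growth factor beta genes were divided between the 2 sources. Tgfb1 was higher in microglia, with 125, 131 and 154 CPM against 0.764 CPM, and Tgfb2 was lower, with 0.0978, 4.64 and 9.61 CPM against 54.1 CPM. Tgfb2 was not called on FPKM, and its log2 ratio varied widely (-4.12 ± 2.13). The receptor gene Tgfbr1 had 3469, 2115 and 3025 CPM against 55.5 CPM. Of the bridging proteins, Pros1 (protein S) was higher in microglia, with 356, 239 and 361 CPM against 25.9 CPM, and Gas6 and Mfge8 were lower as above. Cd47, a signal that inhibits engulfment through the receptor SIRPA, was itself higher in microglia, at 323, 305 and 358 CPM against 34.0 CPM, but missed the rule on FPKM. The other lower receptor beside Tyro3 was the plexin gene Plxna1, at 6.06, 0.945 and 3.29 CPM against 39.6 CPM, which was called neither on FPKM nor after centring by GC content.

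**Figure D3:**
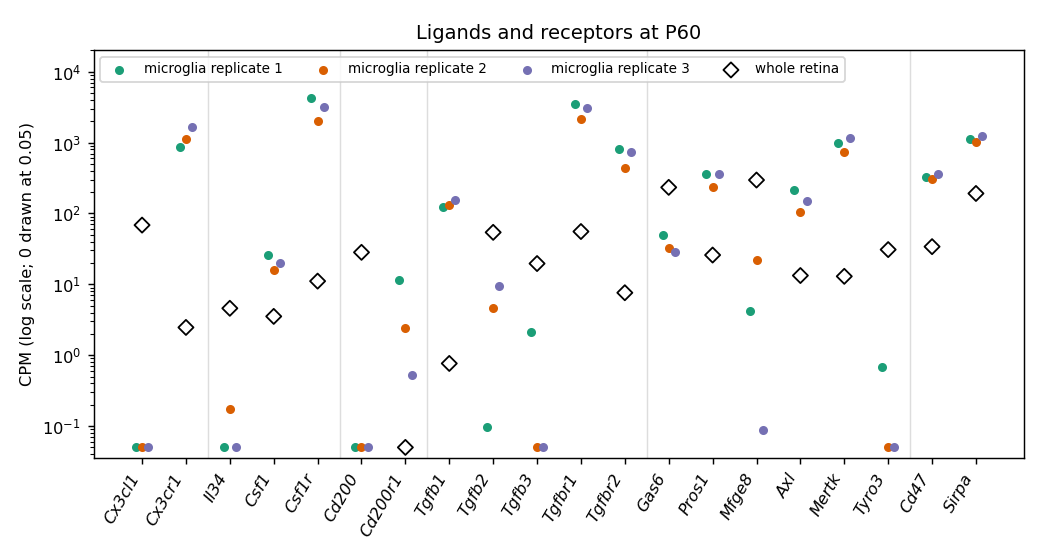
Levels in CPM on a log scale of 20 ligand and receptor genes, with coloured points for the 3 microglia libraries and open diamonds for the whole retina library. Values of 0 are drawn at 0.05, and vertical lines separate signalling families. Cx3cl1 and Cd200 are at 0 in all 3 microglia libraries, and the receptor genes Cx3cr1, Csf1r, Tgfbr1, Tgfbr2 and Mertk lie above the retina in each of them.

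Some markers of other blood cells and macrophages were called, beside 11.2% higher and 16.7% lower over all tested genes. The median log2 ratio was 2.21 for border-associated macrophage genes, 3.76 for neutrophil genes and 1.92 for lymphocyte genes. It was 0.19 for monocyte genes and -2.04 for erythroid genes, against -0.37 over all tested genes. Of 7 border-associated macrophage genes tested, 3 were higher: Stab1 (107, 95.4 and 186 CPM against 3.99 CPM), Mrc1 (45.7, 17.4 and 39.1 CPM against 0.127 CPM, or 3 counts) and Siglec1 (27.0, 16.1 and 13.8 CPM against 2.00 CPM), the last of which missed the rule on FPKM. Of 11 monocyte genes tested, Ccr2 was higher, and Vim and Ly6c1, which other retinal cells also express, were lower. Of 9 lymphocyte genes tested, Ighm, the immunoglobulin mu heavy chain, was higher at 292, 352 and 578 CPM against 0.595 CPM. The B cell marker Ms4a1 had 2.44, 4.38 and 10.9 CPM and was not called. Of 3 neutrophil genes tested only Csf3r was higher. Of 4 erythroid genes tested, 2 were lower and 2 were not called, and the summed level of the list was 4.60, 9.79 and 0.0890 CPM against 9.34 CPM, so library 2 was not below the retina. The lower ones, the globin genes Hbb-bs (3.99 CPM in retina) and Hba-a2 (2.00 CPM), had 0 counts in all 3 microglia libraries, which were prepared with lysis of red blood cells. Hba-a2 was not called after centring by GC content.

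Transcripts of retinal cell markers were counted in each microglia library, in unequal amounts. As a measure called carry-over here, 97 markers of retinal neurons, glia and progenitors with at least 10 CPM in retina were taken, and the microglial level was expressed as a percentage of the retinal one. The median over these markers was 2.09% in library 1, 7.97% in library 2 and 1.06% in library 3. As a ratio of summed levels it was 3.81%, 9.20% and 3.65%, which is higher in each library and still highest in library 2. The median does not tell retinal RNA from transcription of the same genes in microglia. At the other ages, against the retina of the same age, it was 7.63%, 8.98% and 6.46% at P7 (88 markers) and 10.6%, 10.3% and 9.01% at e16.5 (56 markers). The P60 mean of 3.71% ± 3.73 (n = 3) was 3.98 percentage points below that of P7, with overlapping groups (two-sided exact permutation test, p = 0.3, adjusted p = 0.3 over 2 comparisons, 2 of 3 P60 libraries below all 3 of P7). It was 6.28 points below that of e16.5, with all 3 P60 libraries lower, and the exact permutation test gave the smallest p that 3 against 3 libraries allow (p = 0.1, adjusted p = 0.2). Neither difference passed 0.05. Without P60 library 2 the differences were 6.12 and 8.42 points (exact permutation p = 0.1 for both).

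Rod genes were highest in library 2. Of 22 rod genes, 21 were lower and 0 higher in microglia, with a median log2 ratio of -5.38, and library 2 was the highest of the 3 for 21 of them. Sag, which encodes arrestin that ends the light response, had 5599 CPM in retina and 94.3, 580.4 and 31.9 CPM in microglia. Gnat1, the rod transducin alpha subunit, had 11276 CPM in retina and 603, 1076 and 222 CPM in microglia. The rod median was 1.54%, 9.18% and 1.03% of the retinal level in libraries 1 to 3. Single rod genes ranged from 0.168% to 7.02% in library 1, 1.48% to 35.9% in library 2 and 0% to 14.3% in library 3.

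Cone, bipolar and synapse genes gave the same order of libraries by median percentage and a larger gap. By summed level library 2 was again highest, but library 3 stood above library 1 for cone genes (129, 354 and 189 CPM) and bipolar genes (132, 395 and 252 CPM). The synapse sums kept the order (467, 1737 and 339 CPM). The cone median was 1.79%, 19.0% and 0.365%, the bipolar median 2.00%, 11.3% and 0.743%, and the synaptic median 3.29%, 16.7% and 1.57%. Of 12 cone genes 8 were lower, of 18 bipolar genes 13 and of 17 synaptic genes 11, and 0 members of these lists were higher. Gnat2, the cone transducin alpha subunit, had 199 CPM in retina and 11.3, 43.4 and 0 CPM in microglia. Opn1sw, the short-wavelength cone opsin, differed less between libraries, with 605 CPM in retina and 8.12, 12.9 and 5.34 CPM in microglia. Trpm1, the channel of ON bipolar cells, had 309 CPM in retina and 3.42, 70.7 and 8.36 CPM in microglia, and it missed the rule after total-count scaling and after centring by GC content. Otx2, a factor of photoreceptors and bipolar cells, had 163 CPM in retina and 7.24, 27.0 and 1.16 CPM in microglia, and missed the rule on FPKM. Syt1, the calcium sensor of synaptic vesicles, had 1108 CPM in retina and 28.7, 129 and 12.5 CPM in microglia and also missed the rule on FPKM. Snap25, a subunit of the vesicle fusion complex, had 1007 CPM in retina and 87.5, 161 and 17.3 CPM in microglia.

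The progenitor median, at 2.68%, 8.08% and 2.31%, followed the order of the rod median, and ganglion, amacrine and vessel genes had other orders. By summed level over the whole progenitor list library 3 was highest, at 172, 188 and 207 CPM. Of 14 ganglion cell genes, 12 were lower. The median over the 12 with at least 10 CPM in retina was highest in library 1 (4.20%, against 1.29% and 0.883%). Nefl, the neurofilament light chain, had 612 CPM in retina and 28.6, 0 and 8.54 CPM in microglia, and shares exonic sequence with Nefm on the other strand. Of 16 amacrine and horizontal cell genes, 9 were lower. The median over the 11 with at least 10 CPM in retina was 3.12%, 4.66% and 7.27% of retina. Gad1, the enzyme that makes the transmitter GABA, had 272 CPM in retina and 8.51, 1.63 and 0.178 CPM in microglia, the reverse of the order of that median. Of 17 vessel genes, 8 were lower. Over the 9 with at least 10 CPM in retina, the median was 4.86%, 8.45% and 13.9% of retina. Library 1 was the lowest of the 3, alone or tied, for 15 of the 17. These 15 include 3 genes with 0 counts in all 3 microglia libraries. Over all 17 the summed level was highest in library 2, at 105, 166 and 143 CPM against 668 CPM in retina. The endothelial receptor gene Kdr had 195 CPM in retina and 10.8, 15.3 and 27.1 CPM in microglia. Library 2 thus had the highest median percentage for photoreceptor, bipolar cell, synapse and progenitor genes.

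Mueller glia genes were split within the list, with 9 of 15 lower and 0 higher. Rlbp1, a retinoid binding protein, had 380.0 CPM in retina and 2.54, 3.78 and 1.25 CPM in microglia, under 1% in each library. Clu, the secreted chaperone clusterin, had 501 CPM in retina and 1.47, 6.61 and 0 CPM in microglia. Dkk3, a secreted protein of the Dickkopf family, had 860.1 CPM in retina and 2.25, 29.9 and 4.54 CPM in microglia. In contrast Glul, glutamine synthetase, had 2569 CPM in retina and 592, 717 and 864 CPM in microglia, and was not called (log2 ratio -1.84 ± 0.27), though on FPKM it was called lower. Glul and Apoe thus stood well above the level of Rlbp1, Clu and Dkk3 relative to the retina in each library. Of 11 pigment epithelium genes tested, 6 were lower and 1 was higher: Best1, an anion channel gene, at 30.5, 78.9 and 110.3 CPM against 0.722 CPM. Of 14 progenitor genes tested, 8 were lower, such as Pax6 (4.60, 20.7 and 8.27 CPM against 253 CPM), which adult amacrine cells keep expressing. Of 4 lens crystallin and related genes tested, Cryba1 (7.04, 11.6 and 38.7 CPM against 0.680 CPM) and Cryba4 (14.6, 14.3 and 4.18 CPM against 0 counts) were higher and Cryab (0.391, 0.344 and 0 CPM against 14.8 CPM) was lower.

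**Figure D4:**
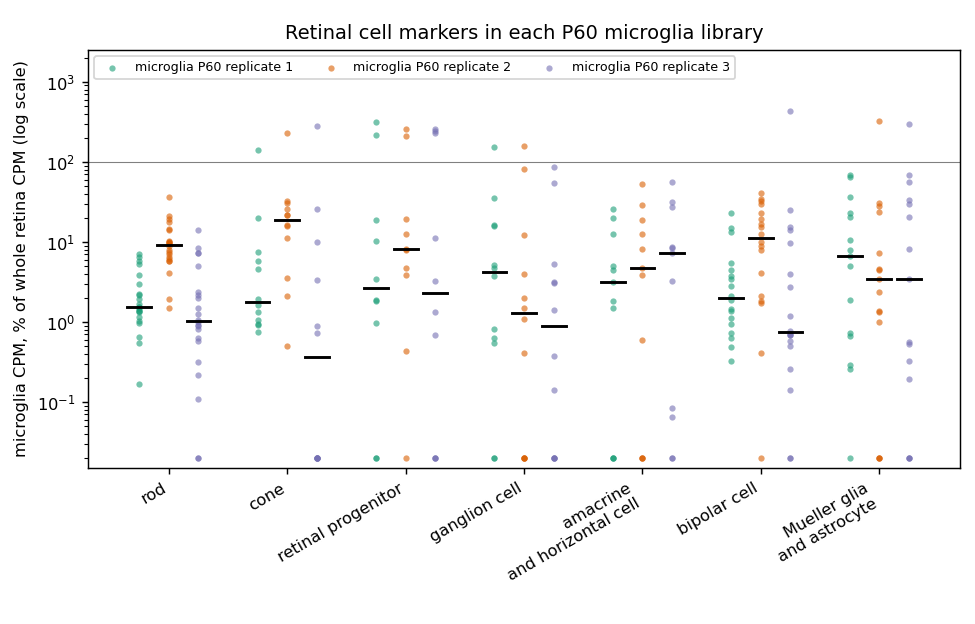
Each point is 1 marker gene with at least 10 CPM in whole retina, given as its level in a P60 microglia library in percent of its level in whole retina (log scale, with values under 0.02% drawn at 0.02%). Colours mark the 3 microglia libraries, black bars the median of each list and the grey line equal levels. Replicate 2 has the highest median for rod, cone, progenitor and bipolar markers, with 9.18% for rods, and replicate 1 for ganglion cells and Mueller glia.

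The 12 genes with the most negative ratios, ranked by their highest microglia library among genes of at least 50 CPM in retina, were Ccnb1ip1, Calb2, Camkv, Pnmal2, Trnp1, Atp1b1, Nsg2, Ddr1, Stmn3, Tro, Adcy2 and Cnn3. Several are known from neurons, and none is in the rod or cone list. Ccnb1ip1, which encodes a ligase known from meiotic crossover, had 2096 CPM in retina and 3.23, 0.945 and 5.16 CPM in microglia. Calb2, the calcium binding protein calretinin of amacrine and ganglion cells, had 214 CPM in retina and 0, 0 and 0.178 CPM in microglia. Atp1b1, a subunit of the sodium pump, had 277 CPM in retina and 0.685, 0 and 0 CPM in microglia. Camkv, Pnmal2, Ddr1, Stmn3 and Adcy2 had 0 counts in all 3 microglia libraries, at least 1517-fold, 1351-fold, 974-fold, 966-fold and 934-fold lower (against 3 counts over the 3 libraries). Relative to the retina, the levels of these 12 genes were below the rod median of the same library in each case. The ranking picks genes of this kind, so that is not a separate result. Of the 1035 lower genes with at least 50 CPM in retina, 35.9%, 54.1% and 38.8% were at or under the carry-over median of libraries 1, 2 and 3.

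Glycolysis genes lay mostly on the retinal side. Of 20 glycolysis genes, 15 were lower and 1 higher (median log2 ratio -3.76). Pkm, pyruvate kinase, had 3602 CPM in retina and 118, 119 and 98.0 CPM in microglia. Aldoa, an aldolase, had 2082 CPM in retina and 75.5, 33.2 and 83.0 CPM in microglia, and Eno1, an enolase, had 1838 CPM and 193, 116 and 39.7 CPM. The higher member was Hk3, the hexokinase of blood cells, at 46.4, 26.6 and 15.7 CPM against 0.170 CPM in retina. Gapdh had 1659.6 CPM in retina and 235, 279 and 369 CPM in microglia, and was not called after centring by GC content. Of 20 nuclear genes of oxidative phosphorylation, 8 were lower and 0 higher (median -2.37). Cox4i1, Atp5a1 and Uqcrc1 were among the lower ones, with 169, 739 and 174 CPM in retina and at most 24.2, 172 and 39.7 CPM in any microglia library. All 3 missed the rule after centring by GC content, and Atp5a1 and Uqcrc1 also on FPKM. The list of 18 broadly expressed genes had 2 higher, 3 lower and a median of -0.84. Gusb (175, 70.0 and 95.4 CPM against 7.73 CPM) was among its higher members, and its lower ones were Gapdh, Pgk1 and Rpl13a. Rpl13a was called neither on FPKM nor after centring by GC content.

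Mitochondrially encoded genes, which are transcribed as long shared precursors, lay on both sides. Of 13, 3 were higher, 2 lower and 8 neither, with a median log2 ratio of 0.99 that was -0.50 after centring by GC content. mt-Nd4 had 1074, 1338 and 1782 CPM against 217 CPM in retina, and mt-Nd5 had 764, 1319 and 1567 CPM against 178 CPM. mt-Co3 had 79.0, 154 and 139.9 CPM against 1459.8 CPM, and mt-Nd3 had 6.16, 5.67 and 6.40 CPM against 81.4 CPM. After centring by GC content mt-Nd4, mt-Nd5 and mt-Nd4l were no longer called. Of 18 replication-dependent histone genes, whose mRNAs lack a poly(A) tail and belong to families of similar sequence, 12 were lower and 1 was higher. Hist1h1c had 208 CPM in retina and 2.54, 6.61 and 8.01 CPM in microglia, and Hist4h4, the higher member, had 201, 180.2 and 365 CPM against 25.3 CPM. Of 21 cell cycle genes, 7 were higher and 0 lower (median 2.43). Mki67, the proliferation marker Ki-67, had 79.8, 109 and 140.1 CPM against 0.297 CPM, and Top2a, a topoisomerase of dividing cells, had 20.1, 52.6 and 49.3 CPM against 1.57 CPM.

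The ratio depended on the GC content of a gene's transcript. Over 17396 tested genes with a transcript in the annotation, the median log2 ratio was 0.62, 0.04, -0.37, -0.81 and -1.62 over 5 groups of about equal size, from the lowest GC content to the highest, and each microglia library gave the same order. The lower call was made for 8.56% of genes in the first of these groups and 29.3% in the last, and the higher call for 15.6% and 6.98%. Transcript length mattered less, with medians from -0.58 for the shortest of 5 such groups to -0.22 for the longest. Centring the ratios within 20 bins of GC content, an alternative added after seeing the data, gave 1836 higher and 2539 lower genes. Of these 1511 and 2196 were also called without centring. Of the 147 genes chosen by the naming rule, 17 had another call after centring. The microglia libraries were made with the NuGEN Ovation v2 system for small RNA amounts, and for whole retina the sources used here give no library kit, so the part of preparation in this trend was not tested.

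The genes higher in microglia were partly those of younger microglia. By the same rule 2041 genes (12.3%) were higher at e16.5 and 1577 genes (9.36%) at P7, each against the retina of that age. Of the 1956 genes higher at P60, 1328 (67.9%) were also higher at e16.5, which is 65.1% of the e16.5 genes. With P7 the overlap was 1124 genes, 57.5% of the P60 genes and 71.3% of the P7 genes. All 3 ages shared 963 genes, and 467 met the rule at P60 alone. Ivns1abp, a gene of the Kelch family, was the most abundant of the named genes in that set by CPM, at 1796, 1872 and 2612 CPM against 215.8 CPM. It was also above the retina at P7 (941, 1014 and 676 CPM against 253 CPM) and at e16.5 (1213, 1694 and 1510 CPM against 346 CPM). At neither age did every library reach 4-fold. Jun, the immediate early transcription factor, was in the set as well, at 416, 918 and 1297 CPM against 30.4 CPM. Jun too was above the retina in every microglia library at P7 and at e16.5. At e16.5 it had 199, 720 and 740 CPM against 68.7 CPM. Its libraries did not all reach 4-fold at either younger age.

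Apoe, Glul, Gas6 and Abcg1 were below the adult retina and above the younger retina in every microglia library of at least 1 younger age. Apoe had 2214, 1339 and 2609 CPM in P7 microglia against 250.5 CPM in P7 retina, where it was called higher, and 355, 364 and 572 CPM against 55.0 CPM at e16.5. Glul had 965, 719 and 1310.1 CPM against 275 CPM at P7 and lay on both sides of the retina at e16.5 (618, 646 and 757 CPM against 697 CPM). Gas6 had 162, 70.4 and 161 CPM against 54.5 CPM at P7, and Abcg1 had 451, 309 and 474 CPM against 169 CPM. For Apoe every P60 microglia library lay under every P7 one, and the P60 retina lay above the P7 retina. The difference between ages in these ratios was not tested, since P7 and P60 have 1 retina library each.

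**Figure D5:**
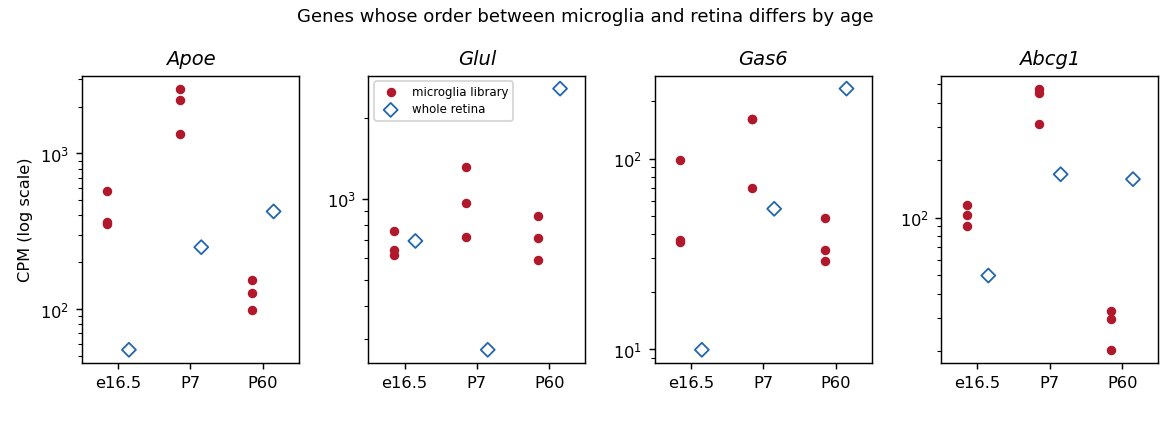
Levels of Apoe, Glul, Gas6 and Abcg1 in CPM on log scales at e16.5, P7 and P60, with red points for the 3 microglia libraries of each age and blue diamonds for whole retina (the mean of 3 libraries at e16.5, 1 library at P7 and P60). At P60 all microglia points lie under the retina for the 4 genes, and at P7 all lie above it.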

How the data were processed

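RNA was measured by sequencing, and the authors deposited 1 table for the series. The estimated counts deposited by the authors are whole numbers per gene, and the submitters' processing notes name Salmon 0.9.1, DESeq2 1.20.0 and the build GRCm38.p6. FPKM values, as deposited, are scaled by length and depth. Their ratios between libraries differ from those of CPM by amounts that vary by gene, which a fixed length per gene would not give. Frmd4a had 743, 505 and 771 CPM but 761, 119 and 314 FPKM in P60 microglia libraries 1 to 3. Sun2 had a P60 microglia mean of 340 CPM against 32.5 CPM in retina, but 115 FPKM against 90.9 FPKM. For their own comparisons the authors also gave log2 fold changes and adjusted p-values, of which only those for microglia against retina at P60 were used. Rows list only genes with a highest count of at least 10, so silent genes are not analysed here.

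From the counts, rounded to whole numbers, CPM was computed with edgeR 4.0.16 TMM factors over all 14 libraries (R 4.3.3, Python 3.11.15). Calls used 4-fold, 0.5 CPM added and a filter of 1 CPM. Carry-over was compared with scipy 1.17.1 exact permutation tests. Intervals are Poisson at 95%, and a gene at 0 counts was set at 3 counts for a bound. Replicates carry numbers shared across ages, a point taken up under the alternatives.

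The comparison and the 40 gene lists were chosen with earlier results of these data known. Genes named were the 12 with the largest ratio on each side, up to 3 members per list and direction, and fixed anchor genes, 147 in all. Of these, 12 share at least 100 exonic bases with another gene of the table, among them Cd180, Atp1b1, Csf1r, Stab1, Nefl and Atp5a1 on the opposite strand. Other genes named (Rtn4rl1, Cst3, Bin1, Ctsf, Mef2c, Cebpb, Clec4a1, Ms4a1, Ivns1abp, Jun, Frmd4a and Sun2) were chosen after their values were seen. The listed small non-coding RNAs had no entry in the table and are not analysed here. Some genes that the rule names are not reported here.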

Additional observations from a re-analysis of the deposited data

Results flagged for a closer look

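For 12 named genes, every microglia library lay on one side of the retina at P60 and on the other side at a younger age. The difference between ages was not tested in any of them, since P60 and P7 have 1 retina library each, and log2 ratios below are means over 3 microglia libraries.

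Genes of lipid handling and glia had the order reversed at both younger ages, apart from Glul. Apoe had a log2 ratio of -1.76 at P60, 2.979 at P7 and 2.922 at e16.5, and its P60 value was 0.26 after centring by GC content. Gas6 had -2.68 at P60, 1.162 at P7 and 2.311 at e16.5, and Abcg1 had -2.54, 1.258 and 1.039. Glul had -1.84 at P60 and 1.817 at P7, and its e16.5 libraries lay on both sides.

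Hist4h4, a histone gene, and Top2a, a gene of dividing cells, were above the retina at P60 and below it earlier. Hist4h4 had 3.20 at P60, -2.152 at P7 and -5.084 at e16.5. Top2a had 4.19, -0.3506 and -1.351. Its microglia level was 460.7 to 796 CPM at e16.5 and 20.1 to 52.6 CPM at P60, and its retina level 1583 and 1.57 CPM.

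The rod genes Gnat1 and Sag were above the e16.5 retina, at 2.371 and 3.02, against -4.43 and -5.53 at P60. The e16.5 retina had 1.08 CPM of Gnat1 and 1.48 CPM of Sag. The bipolar gene Lrtm1 (0.872 at e16.5, -5.31 at P60), Il34 (1.282 and -3.20), Cryab (1.119 and -4.41) and mt-Co3 (0.4754 and -3.61) had the same order, and in microglia the first 3 were under 3 CPM at e16.5.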

How the results depend on the processing

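At a fold of 2 the calls were 3631 higher and 4889 lower, and at a fold of 8 they were 919 and 1573. Other scalings, pseudocounts, filters, FPKM, subtraction of carry-over, centring by GC content and leaving out each library gave 1617 to 2540 higher and 2507 to 3673 lower genes. Since a call needs every library, leaving one out cannot lose a call. On FPKM 1534 of the 1956 higher and 2239 of the 2922 lower genes were called again. As a ratio of summed levels the homeostatic genes stood in retina at 5.025% of microglia, against a median of 0.750%. Named genes changed call in 2 of 147 cases with total counts, 14 on FPKM and 17 after centring by GC content, and Apoe alone turned, from -1.76 to 0.26 after centring by GC content, without being called either way. List medians moved by more than their spread in 14 of 39 lists on FPKM and 16 after centring, where vessels went from -3.03 to -1.93, histones from -3.36 to -2.01 and mitochondrially encoded genes from 0.99 to -0.50. The monocyte list, at 0.19, was at -0.21 without library 2 and -0.28 without library 3. The cause was not tested. Carry-over by summed levels was 3.81%, 9.20% and 3.65% for libraries 1 to 3.

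With a replicate block (exact sign-flip test of same-numbered libraries) both age differences in carry-over, -3.98 and -6.28 percentage points, had p = 0.25, the smallest that 3 pairs allow. Same-numbered libraries correlated across genes at 0.251, 0.154 and 0.0710 between P60 and P7 and at 0.151, 0.0359 and 0.0680 between P60 and e16.5. Each P60 library correlated best with its own number, a hint from the data and not from the design. Leaving out libraries gave differences of -6.12 to -2.66 points for P7 and -8.42 to -4.96 for e16.5. In retina 1 count is worth 0.0425 CPM, so levels under 0.127 CPM there rest on fewer than 3 counts.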

Other observations

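The deposited FPKM values, which are scaled by length, allow levels of different genes to be ordered within a library. In whole retina Ccnb1ip1, at 9714 FPKM, stood above the rod gene Gnat1, at 7106 FPKM. Ccnb1ip1 had 2.44, 0.748 and 4.25 FPKM in the 3 P60 microglia libraries. In microglia Actb was first by the mean of the libraries, at 8810.2, 8099.5 and 11572 FPKM. The splicing factor gene Hnrnph1 was the second, at 3979, 9917 and 14024 FPKM, and Ctss and B2m were among the first 5. Chek2, which encodes a DNA damage kinase, was among the first 15 at 698, 3418 and 3119 FPKM. For Hnrnph1 and Chek2, library 1 was the lowest of the 3. These genes were chosen after their values were seen.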
